A study of Rattus norvegicus with 6 samples.

Results

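Heat shock proteins (HSPs) and their DNAJ co-chaperones were followed in rat Schwann cell precursors (SCPs) and repair Schwann cells (RSCs) by RNA-seq. The set held every gene symbol that began with Hspa, Hspb, Hspd, Hspe or Hsph, or with Dnaja, Dnajb or Dnajc, which was 76 of the 29468 symbols listed. It comprised 31 Hsp symbols, of which 5 were Hspd1 pseudogenes, and 45 Dnaj symbols. The HSP90 genes and the crystallins carry other symbols and were followed as partners. FPKM, which scale fragments by transcript length and by the mapped fragments of the sample, were summed over the transcripts of a symbol.

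The question was how heat-inducible and constitutive chaperone genes compared between the groups. Per the labels, all 6 samples came from wild-type LEWIS rats, whereas the study's methods describe cells prepared for grafting from LEWIS rats that express a red fluorescent protein in all tissues and name 1 preparation for grafting and RNA, so that the genotype of these samples is uncertain. The 3 SCP samples came from sciatic nerves and brachial plexus of both sides in embryos at embryonic day 14, which received no treatment. The 3 RSC samples came from nerve distal to a sciatic cut made 1 week earlier in adult rats, aged 10 weeks per the labels. SCPs were digested for 30 min and RSCs for 60 min at 37 °C, with more collagenase for RSCs, and 30 min in uncoated flasks then depleted adherent cells. Age, injury and dissociation therefore cannot be told apart in this comparison. The methods speak of separate cell preparations, and nothing used here ties a preparation to single animals, so that p-values measure only the spread between these samples, which may be partly technical.

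HSP70 proteins bind exposed stretches of unfolded protein and release them in a cycle driven by ATP. DNAJ proteins deliver clients and stimulate the ATPase of HSP70, and nucleotide exchange factors such as HSP110 and the BAG proteins restart the cycle. Small HSPs hold unfolded protein without ATP, and HSP60 with its lid HSP10 folds proteins inside mitochondria. Heat shock factor 1 binds heat shock elements, which are repeats of a short unit in alternating orientation, in the promoters of inducible members. Cytosolic cognates such as Hspa8 are expressed without stress.

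Sox10, the transcription factor that marks the Schwann lineage, was at 175 to 181 FPKM in SCPs and 143 to 149 FPKM in RSCs. Ngfr, another marker of the lineage, was at 173 to 233 FPKM in SCPs and 802.5 to 1068 FPKM in RSCs. S100b, a further marker, was at 3.21 to 19.3 FPKM in SCPs and 782 to 924 FPKM in RSCs. Both were called over 4-fold higher in RSCs, whereas Erbb3 was listed at 0 in 1 sample of each group. Such zeros can be failed estimates, and they are given below as listed. The samples also held other cells. The sum over 10 leukocyte markers was 15.1 to 45.7 FPKM in SCPs and 1033 to 1408 FPKM in RSCs. All 10 were over 4-fold higher in RSCs, where 7.81% of all tested genes were. The sum over 6 fibroblast markers was 641 to 1020 FPKM in SCPs and 5360 to 8011 FPKM in RSCs. Of the 6, 5 were called higher in RSCs (all genes 18.1%), and Pdgfra was not (41.7 to 47.0 FPKM in SCPs, 47.6 to 61.3 FPKM in RSCs). Markers of red blood cells summed to 33.4 to 119 FPKM in SCPs and 0.434 to 1.69 FPKM in RSCs, and those of skeletal muscle to 56.7 to 203 and 5.81 to 19.2 FPKM. Among 14 immediate-early genes that tissue dissociation is known to induce, 12 were called higher in RSCs, where 18.1% of all tested genes were. Their sums were 854 to 947 FPKM in SCPs and 2594 to 3562 FPKM in RSCs. The part of these cells and of dissociation in the results below was not tested. In such bulk samples, fewer cells of a type and less RNA per cell cannot be told apart.

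The upstream sequences of 7 members are given because they carry the elements whose matches are counted below. Each line holds the 150 bases before the RefSeq start of the gene on build GRCr8, 5′ to 3′ on the gene's strand. Capitals mark 2-unit heat shock elements (GAANNTTC or TTCNNGAA) in the first 6 lines. In the last line, of Hspa5, they mark the endoplasmic reticulum (ER) stress element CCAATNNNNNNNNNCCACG.
Hspb1, chr12:26432302-26432451, minus strand: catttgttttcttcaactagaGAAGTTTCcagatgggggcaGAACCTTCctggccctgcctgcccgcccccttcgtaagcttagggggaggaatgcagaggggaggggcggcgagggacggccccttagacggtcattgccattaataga
Dnajb1, chr19:41431142-41431291, minus strand: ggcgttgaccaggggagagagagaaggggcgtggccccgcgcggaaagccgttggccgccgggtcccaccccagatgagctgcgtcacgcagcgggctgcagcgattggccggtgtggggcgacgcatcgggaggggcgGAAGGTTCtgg
Hspb8, chr12:45837158-45837307, plus strand: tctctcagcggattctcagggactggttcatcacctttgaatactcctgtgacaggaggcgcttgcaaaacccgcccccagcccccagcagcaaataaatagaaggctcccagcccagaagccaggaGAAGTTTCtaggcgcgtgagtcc
Hsph1, chr12:10427218-10427367, plus strand: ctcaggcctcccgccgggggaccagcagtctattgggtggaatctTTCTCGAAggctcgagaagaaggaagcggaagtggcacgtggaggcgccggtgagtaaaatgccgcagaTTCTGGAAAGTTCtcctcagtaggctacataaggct
Hspa8, chr8:50080364-50080513, plus strand: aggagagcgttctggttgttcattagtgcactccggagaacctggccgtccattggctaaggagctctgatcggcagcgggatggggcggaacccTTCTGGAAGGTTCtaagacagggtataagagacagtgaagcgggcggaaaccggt
Hspe1, chr9:64084177-64084326, plus strand: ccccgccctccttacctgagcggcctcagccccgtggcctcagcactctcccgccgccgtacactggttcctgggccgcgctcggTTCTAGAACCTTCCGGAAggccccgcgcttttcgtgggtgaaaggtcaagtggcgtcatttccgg
Hspa5, chr3:38452866-38453015, plus strand: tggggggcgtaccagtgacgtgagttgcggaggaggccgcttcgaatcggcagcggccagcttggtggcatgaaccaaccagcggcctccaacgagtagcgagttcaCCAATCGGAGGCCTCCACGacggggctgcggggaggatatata

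Among these 7, Hspb1, Dnajb1, Hspb8 and Hspa5 were higher in RSCs, and Hsph1, Hspa8 and Hspe1 were not called. The 2-unit elements in Hspb1 lay at -129 to -122 and -109 to -102 from the start, and those before the start in Dnajb1 and Hspb8 at -11 to -4 and -23 to -16. Adjoining units overlapped into a 3-unit element in Hsph1 at -36 to -24, in Hspa8 at -55 to -43 and in Hspe1 between -65 and -48. The Hspe1 line lies between the starts of Hspe1 and Hspd1, which are transcribed in opposite directions, and so the same stretch, read on the other strand, precedes Hspd1.

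RefSeq promoters, from 250 bases before to 50 bases after the start, were matched for 57 of the 76 members. Both strands were searched, and each 2-unit motif reads the same on both. A 2-unit element was present in 16 of the 57 (28.1%) and in 15.9% of all 33469 promoters of this length. By call, it was present in 4 of the 12 promoters of members higher in RSCs (33.3%), 4 of 10 of those higher in SCPs (40.0%) and 7 of 27 of those not called (25.9%). By the classes described further below, it was in 3 of 4 heat-inducible and 3 of 4 heat-responsive promoters (75.0% each). Of constitutive cytosolic promoters 2 of 8 held it (25.0%), and of mitochondrial ones 3 of 8 (37.5%). A 3-unit element (GAANNTTCNNGAA or TTCNNGAANNTTC) was in 5 of 57 (8.77%) against 0.798% of all promoters, namely those of Dnaja1, Hspa8, Hspd1, Hspe1 and Hsph1. None of these 5 belonged to the 12 higher in RSCs. The matches of Hspd1 and Hspe1 are the same bases read on opposite strands, and that of Dnaja1 lay after the start, at 10 to 22. The heat shock elements as spelled here were thus found in the windows of members of either direction, and the class shares rest on few promoters. The ER stress element was in 2 members, Hspa5 and Dnajc3, and in 0.0657% of all promoters, and both genes were higher in RSCs. The window of Hspa1a held neither heat shock motif in these letters, and Hspa1b had no promoter in the table. A match is a description of letters and not of binding.

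Of the 76 members, 62 reached the mean of 1 FPKM that was required for testing. Another 7 were listed at 0 in every sample, 4 of them Hspd1 pseudogenes and the others Dnajb8, Dnajc5b and Dnajc5g, and 7 lay between 0 and that mean. With limma on log2(FPKM + 1), 27 of the 62 tested members differed at an unadjusted p under 0.01 (43.5%), where 40.5% of all 13003 tested genes did. Of the 27, 14 were higher in RSCs (22.6%, all genes 18.1%) and 13 higher in SCPs (21.0%, all genes 22.4%). Both shares were near those of all genes. Over 4-fold, with a log2 difference above 2, 10 members were higher in RSCs (16.1%, all genes 7.81%) and 0 in SCPs (all genes 3.78%), 13 being higher in SCPs without the fold threshold. The 10 include Hspa1a, Hspa1b and Hspa1l, whose reads may be shared, and Dnajc19, listed at 0 in all SCP samples. They also include Dnajb12 and Dnajb14, which fell to 0.82 and -0.11 when transcripts without a gene name were added. At a Benjamini-Hochberg adjusted p under 0.01 the calls numbered 22 (35.5%, all genes 31.6%). In 39 of the 62 the 2 groups of samples did not overlap (62.9%, all genes 58.6%).

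The split moved with the scaling of the samples. The median log2 difference of all genes was -0.17, RSC minus SCP, and 0.11 for the members. When FPKM were rescaled by the median of ratios, the median of all genes became 0.01 and that of the members 0.27. The members' calls were then 19 higher in RSCs (30.6%, all genes 21.2%) and 8 in SCPs (12.9%, all genes 16.9%). All 14 members called higher in RSCs kept their call under that scaling, and Dnaja1, Dnajc2, Dnajc24, Dnajc7 and Hspbp1 lost their call for SCPs.

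**Figure D1:**
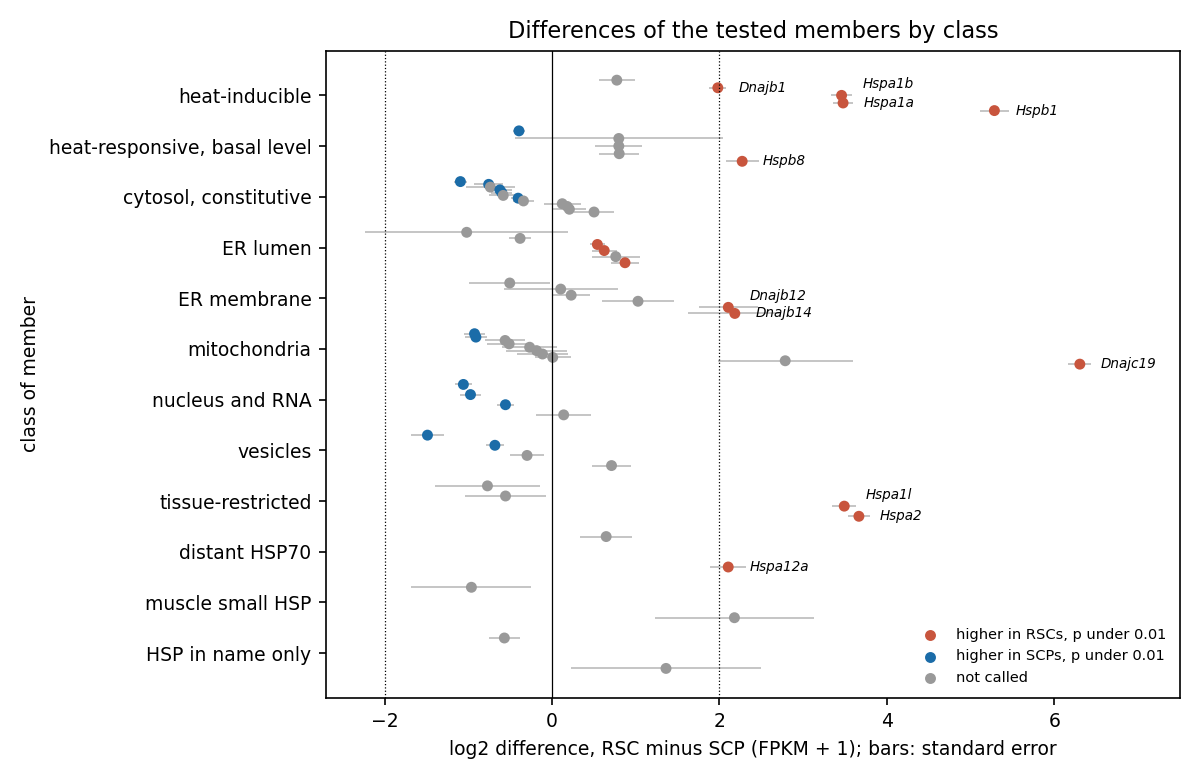
Log2 difference of FPKM + 1 (x axis, RSC minus SCP) of the 62 tested members, grouped by class (y axis; height within a class only separates points). Bars are standard errors, colours give the call, dotted lines mark 4-fold, and the median of the heat-inducible class (3.46) stands apart from that of the constitutive cytosolic class (-0.49). Hspa1a and Hspa1b of the heat-inducible class are near-identical copies, and how their reads were divided is uncertain.

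The classes were lists written by hand with earlier results of these data known. Listed separately, the 5 heat-inducible members (Hspa1a, Hspa1b, Hspb1, Hsph1 and Dnajb1) had a median log2 difference of 3.46. Of these members 4 were called higher in RSCs (all genes 18.1%). Their summed level was 354, 456 and 449 FPKM in SCPs and 4109, 4227 and 4476 FPKM in RSCs, 10.2-fold higher in RSCs. The 12 constitutive cytosolic members had a median of -0.49, with 0 called higher in RSCs and 5 higher in SCPs (all genes 22.4%). Their sum was 1386, 1365 and 1319 FPKM in SCPs and 1343, 1283 and 1425 FPKM in RSCs, and these ranges overlapped. The heat-inducible sum was thus below the constitutive sum in every SCP sample and above it in every RSC sample. All members together made up 0.586%, 0.618% and 0.496% of the summed FPKM of named genes in SCPs and 1.42%, 1.39% and 1.44% in RSCs. Without Hspa1a, Hspa1b and Hspa1l the sum was 2697 to 2870 FPKM in SCPs and 3259 to 3598 FPKM in RSCs.

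**Figure D2:**
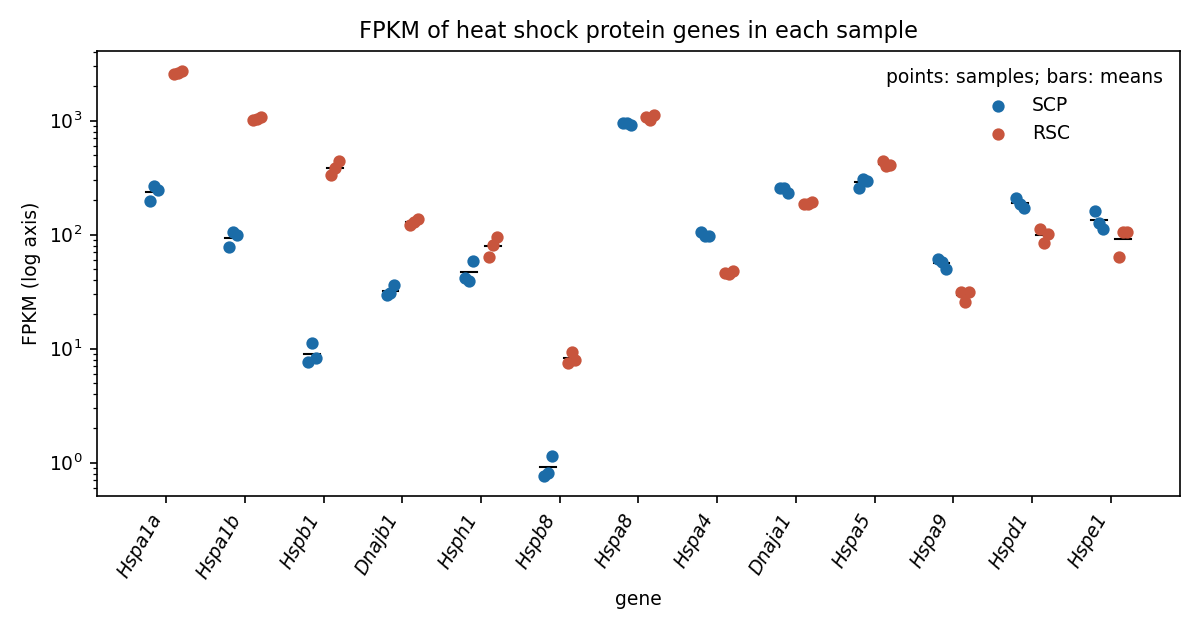
FPKM (y axis, log scale) of 13 members in each of the 3 SCP and 3 RSC samples, with the group means as bars. The RSC samples of Hspa1a, Hspa1b, Hspb1, Dnajb1 and Hspb8 all lie far above the SCP samples, those of Hspa8 lie just above them (1016 to 1129 against 924 to 962), and those of Hspa4, Dnaja1, Hspa9 and Hspd1 lie below them.

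Hspa1a encodes the major stress-inducible cytosolic HSP70 (rn6 chr20:2699707-2701980). It was at 196, 269 and 248 FPKM in SCPs and at 2578, 2599 and 2726 FPKM in RSCs. The groups were wide apart, with an 11.1-fold higher mean in RSCs (log2 difference 3.48, SE 0.12, limma adjusted p = 2.5e-05). Its near-identical copy Hspa1b (chr20:4875834-4881751) was at 78.0, 106 and 98.8 FPKM in SCPs and at 1015, 1032 and 1071 FPKM in RSCs, a log2 difference of 3.46. Hspa1l, a copy known from the testis (chr20:4959294-4965191), was at 12.9, 18.1 and 16.6 FPKM in SCPs and at 175, 184 and 203 FPKM in RSCs, a log2 difference of 3.49. The 3 genes shared a profile over the samples, with SCP 1 lowest for each.

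How the reads of these copies were divided is uncertain. The ratio of Hspa1a to Hspa1b was 2.51 to 2.54 in all 6 samples on the FPKM scale. Multiplied by transcript length, which was 2274 bases for Hspa1a and 5918 bases for Hspa1b, it was 0.963 to 0.978, so that the 2 copies received nearly the same amount of signal in every sample. The ratio of Hspa1l to Hspa1a was 0.0657 to 0.0675 in SCPs and 0.0680 to 0.0744 in RSCs. The 3 are therefore treated as 1 uncertain source, whose summed level was 287, 393 and 363 FPKM in SCPs and 3768, 3815 and 4000 FPKM in RSCs. With the 3 counted as 1 gene, the members higher in RSCs numbered 12 and those over 4-fold 8, and the median of the heat-inducible class was 2.73. Of all tested genes, 18.1% were called higher in RSCs and 7.81% over 4-fold higher in RSCs.

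Hspa2 encodes a further HSP70 that is best known from male germ cells and is found in the brain. It was at 4.26, 5.12 and 4.21 FPKM in SCPs and at 77.5, 62.8 and 67.4 FPKM in RSCs. All RSC samples were over 10 times the SCP level (log2 difference 3.67, SE 0.13, adjusted p = 2.5e-05). Its ratio to Hspa1a was 0.0170 to 0.0217 in SCPs and 0.0242 to 0.0301 in RSCs and so varied more than that of the copies above.

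The cytosolic cognate Hspa8, which serves folding and clathrin uncoating in unstressed cells, was the most abundant constitutive member. It was at 962, 951 and 924 FPKM in SCPs and at 1073, 1016 and 1129 FPKM in RSCs. The groups did not overlap, but the log2 difference of 0.18 (SE 0.06) did not pass the threshold (limma unadjusted p = 0.025, adjusted p = 0.052). After quantile normalization (0.44) and after median-of-ratios scaling (0.40) it was called higher in RSCs. The ratio of Hspa1a plus Hspa1b to Hspa8 was 0.285, 0.395 and 0.375 in SCPs and 3.35, 3.57 and 3.36 in RSCs. Within each SCP sample the cognate thus exceeded the inducible genes, and within each RSC sample the inducible genes exceeded the cognate. An exact two-sided permutation test of 3 against 3 samples cannot go below p = 0.10, which is the value this ratio gave.

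**Figure D3:**
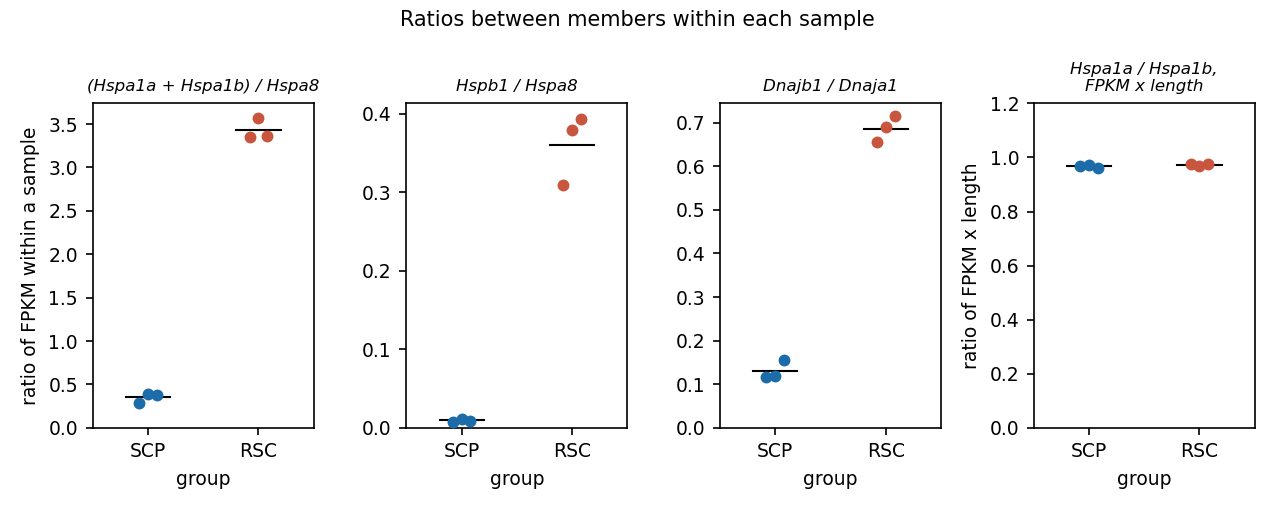
Ratios within each sample (y axes, from 0), by group (x axis), with points for samples and bars for group means. The first 3 panels show no overlap of groups, and the last shows Hspa1a over Hspa1b, as FPKM times transcript length, between 0.963 and 0.978 in all samples.

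Hspb1, or HSP27, had the largest difference of the heat-inducible class. It is a small HSP that binds unfolded protein and actin and is known to rise in injured sensory neurons (chr12:23839420-23840981, the first upstream sequence above). It was at 7.58, 11.1 and 8.31 FPKM in SCPs and at 332, 385 and 445 FPKM in RSCs. The mean was 43.05-fold higher in RSCs (log2 difference 5.29, SE 0.17, adjusted p = 2.2e-05). Hspb8, which works with Bag3 in chaperone-assisted autophagy, was low in SCPs at 0.764, 0.816 and 1.15 FPKM. It was at 7.41, 9.31 and 7.95 FPKM in RSCs, all above the SCP samples (log2 difference 2.27, SE 0.20, adjusted p = 3.5e-04).

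The small HSPs known from muscle were low. Hspb6 was listed at 0 in all SCP samples and in RSC 1, and at 5.86 and 12.5 FPKM in RSC 2 and RSC 3. Hspb2 was at 3.32 to 7.40 FPKM in SCPs and listed at 0 in RSC 2, and neither was called, although Hspb6 passed without RSC 1 (3.27) and with unnamed transcripts added, which gave 12.5 to 16.9 FPKM in RSCs. Hspb3 and Hspb7 stayed below the mean of 1 FPKM. Cryab, or αB-crystallin, is a small HSP under another symbol and was at 2.55, 2.70 and 3.47 FPKM in SCPs. It was at 225, 172 and 221 FPKM in RSCs, a log2 difference of 5.72 (SE 0.16, adjusted p = 1.4e-05).

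Hsph1 encodes the inducible HSP110, an exchange factor for HSP70 (chr12:6322685-6341898). It was at 41.9, 39.1 and 58.8 FPKM in SCPs and at 63.5, 81.9 and 95.2 FPKM in RSCs. SCP 3 came close to RSC 1, and the log2 difference of 0.77 (SE 0.21) missed the threshold (limma unadjusted p = 0.011, adjusted p = 0.027). It passed under median-of-ratios scaling (0.98), where all 5 heat-inducible members were called, with the highest transcript in place of the sum (0.82), without SCP 3 (0.95) and without RSC 1 (0.93). With the unnamed transcripts of its locus added it was at 52.8 to 58.8 and 126 to 136 FPKM and was called, with a log2 difference of 1.21. Hspa4, the constitutive relative of Hsph1, went the other way. It was at 106, 97.5 and 96.7 FPKM in SCPs and at 46.4, 45.0 and 47.5 FPKM in RSCs, 2.16-fold higher in SCPs (log2 difference -1.10, SE 0.08, adjusted p = 1.6e-04). The third HSP110 gene, Hspa4l, was below 4 FPKM in every sample and was not called.

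Dnajb1, or HSP40, is the inducible partner of Hspa1a and was at 29.9, 30.7 and 35.8 FPKM in SCPs. It was at 121, 129 and 138 FPKM in RSCs, with a log2 difference of 1.98 (SE 0.10, adjusted p = 6.1e-05) that lay just short of the 4-fold line. Dnaja1, a DNAJ protein with a high basal level that is also known to respond to heat, was at 258, 258 and 230 FPKM in SCPs and at 185, 186 and 194 FPKM in RSCs. The direction was the opposite of that of Dnajb1 (log2 difference -0.40, SE 0.07, adjusted p = 0.0059), although its call was lost under median-of-ratios scaling and without the variance trend. The ratio of Dnajb1 to Dnaja1 was 0.116 to 0.156 in SCPs and 0.655 to 0.714 in RSCs. Of the other members that respond to heat, Dnajb4 was at 19.3 to 24.9 FPKM in SCPs and 32.0 to 55.3 FPKM in RSCs and was not called. Dnaja4 was listed at 0 in 4 samples.

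The constitutive cytosolic class held, besides Hspa8 and Hspa4, mostly co-chaperones at lower levels. Those higher in SCPs, after Hspa4, were Dnajc2, Dnajc24, Dnajc7 and Hspbp1. Dnajc2, a ribosome-bound DNAJ protein that works on nascent chains, was at 31.2, 27.1 and 22.3 FPKM in SCPs and at 18.2, 14.8 and 13.4 FPKM in RSCs. Dnajc2 passed with a log2 difference of -0.76 (SE 0.17, limma unadjusted p = 0.0051, adjusted p = 0.015). Its call was lost without SCP 1 (-0.65), SCP 2 (-0.75), RSC 2 (-0.73) or RSC 3 (-0.67). Dnajc7, which binds both HSP70 and HSP90, was at 120 to 136 FPKM in SCPs and 74.6 to 100 FPKM in RSCs. Hspbp1, an exchange factor, was at 49.4 to 53.0 FPKM in SCPs and 37.3 to 40.8 FPKM in RSCs. The highest value of each in RSCs was below its lowest value in SCPs, but Dnajc7 lost its call without SCP 1 (-0.60), SCP 2 (-0.56), RSC 1 (-0.56) or RSC 2 (-0.51). Hspbp1 lost it without RSC 1 (-0.38) or RSC 2 (-0.40), and Dnajc24 without any 1 of 5 samples (-0.67 to -0.57). With the highest transcript in place of the sum Dnajc2, Dnajc7 and Hspbp1 were not called, and the latter pair were not called without the variance trend either. Under median-of-ratios scaling 1 of the 12 was called in each direction, Hspa4 for SCPs and Hspa8 for RSCs, and the class median was -0.29.

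The ER members were higher in RSCs where called. Hspa5, or BiP, is the HSP70 of the ER lumen and was at 254, 309 and 297 FPKM in SCPs and at 441, 398 and 411 FPKM in RSCs. The samples did not overlap, at a 1.45-fold higher mean (log2 difference 0.54, SE 0.09, adjusted p = 0.0048). Its lumenal co-chaperones Dnajc3 (8.56 to 9.85 and 15.4 to 21.9 FPKM, log2 difference 0.87) and Dnajb9 (9.75 to 12.2 and 15.1 to 18.7 FPKM, 0.62) were also called. The call of Dnajb9 was lost without SCP 2 (0.59), SCP 3 (0.57), RSC 1 (0.55) or RSC 3 (0.61). Dnajb11 (0.76), Dnajc10 (-0.38) and Hspa13 (-1.02, listed at 0 in 3 samples) were not. The call of Hspa5 was lost after quantile normalization, at 0.39.

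In the ER membrane, Dnajb12 was at 3.72, 5.93 and 11.6 FPKM in SCPs and at 32.1, 31.2 and 29.7 FPKM in RSCs. It was called over 4-fold higher in RSCs (log2 difference 2.11, SE 0.35, adjusted p = 0.0044). With unnamed transcripts of the locus added, it was at 13.5 to 20.3 FPKM in SCPs, and the log2 difference was 0.82. Dnajb14, its relative, was listed at 0 in SCP 1 and SCP 2, at 2.72 FPKM in SCP 3 and at 5.65 to 6.86 FPKM in RSCs. It passed the threshold with a log2 difference of 2.18 (limma unadjusted p = 0.0079, adjusted p = 0.020). With unnamed transcripts, however, the SCPs were at 4.78 to 8.14 FPKM and the log2 difference was -0.11. The call also fell away without SCP 1 or SCP 2 (1.87 each) and without RSC 1 (2.22), RSC 2 (2.22) or RSC 3 (2.10).

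Of the mitochondrial folding machinery, Hspd1 and Hspa9 were higher in SCPs. Hspd1, or HSP60, was at 208, 187 and 172 FPKM in SCPs and at 112, 84.8 and 101 FPKM in RSCs. Every SCP sample exceeded every RSC sample, at a 1.90-fold higher mean in SCPs (log2 difference -0.93, SE 0.13, adjusted p = 0.0021). Hspa9, or mortalin, the mitochondrial HSP70, was at 61.4, 57.3 and 49.9 FPKM in SCPs and at 31.7, 25.6 and 31.1 FPKM in RSCs (log2 difference -0.91, SE 0.13, adjusted p = 0.0022). Hspe1, or HSP10, was at 162, 127 and 113 FPKM in SCPs and at 64.1, 105 and 106 FPKM in RSCs. RSC 1 alone was far below the SCPs, and the log2 difference of -0.56 (SE 0.24) was not called (limma unadjusted p = 0.058, adjusted p = 0.10). With unnamed transcripts added RSC 1 was at 119 FPKM, above SCP 3 at 113 FPKM, and the log2 difference of Hspe1 was -0.27. In the rn6 annotation Hspd1 spans bases 61680529 to 61691202 of chromosome 9 and Hspe1 begins at base 61691246. The 2 genes lie closer together there than their starts on GRCr8, from which the upstream sequence above was taken.

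Dnajc19, a DNAJ protein of the mitochondrial import motor, stood at 81.2, 71.7 and 81.8 FPKM in RSCs and was listed at 0 in all 3 SCP samples. No fold is given against a group listed at 0, and no unnamed transcript of the same locus was found to add. It counts among the 10 members over 4-fold, as does Dnajb14. Dnajc4 was listed at 0 in SCP 2 and SCP 3 and at 9.24 to 15.2 FPKM in RSCs, and was not called with all samples but passed without SCP 1 (3.73). The other 5 mitochondrial members were not called, with log2 differences from -0.51 to 0.01, and of them Dnaja3 passed without RSC 3 (-0.78).

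Of the 4 nuclear members 3 were called higher in SCPs, where 22.4% of all tested genes were. Dnajc9, a histone chaperone of the DNAJ family, was at 45.0, 41.6 and 40.1 FPKM in SCPs and at 21.1, 18.5 and 19.7 FPKM in RSCs. It was 2.14-fold higher in SCPs (log2 difference -1.06, SE 0.10, adjusted p = 4.7e-04). Dnajc17 was at 17.6, 14.5 and 15.7 FPKM in SCPs and at 7.59, 7.77 and 7.39 FPKM in RSCs (log2 difference -0.97, SE 0.13, adjusted p = 0.0017). Dnajc8, which is found with the splicing machinery, had a log2 difference of -0.56, which was -0.37 and no longer called with unnamed transcripts added. Beside these stands the sum over 7 cell division genes, which was 282 to 375 FPKM in SCPs and 139 to 148 FPKM in RSCs, with 5 of 6 tested higher in SCPs and Top2a listed at 0 throughout. Its part in the difference of the nuclear members was not tested.

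Among members linked to vesicles, Dnajc27 had the largest difference of all members higher in SCPs. It was at 6.24, 6.44 and 5.99 FPKM in SCPs and at 2.10, 1.30 and 1.39 FPKM in RSCs (log2 difference -1.49, SE 0.20, adjusted p = 0.0019). Dnajc5, the cysteine string protein of synaptic vesicles, was at 34.7, 36.8 and 30.1 FPKM in SCPs and at 21.1, 20.0 and 20.8 FPKM in RSCs (log2 difference -0.68, SE 0.11, adjusted p = 0.0036). With the highest transcript used in place of the sum, the log2 difference of Dnajc5 was 0.95. Hspa12a, a distant HSP70 relative, was at 2.75, 3.04 and 3.60 FPKM in SCPs and at 19.6, 12.5 and 18.9 FPKM in RSCs, over 4-fold higher in RSCs (log2 difference 2.10, SE 0.22, adjusted p = 6.8e-04).

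Partner genes outside the Hsp and Dnaj symbols were, where called, mostly higher in SCPs. Of all tested genes 22.4% were called higher in SCPs and 18.1% in RSCs, with a median log2 difference of -0.17. All 8 subunits of the cytosolic chaperonin TRiC, which folds actin and tubulin, had higher means in SCPs, and 7 were called, with a median log2 difference of -1.05. Tcp1 (-1.51), Cct5 (-1.27) and Cct6a (-1.17) had the largest differences. Of 13 co-chaperones of HSP70 and HSP90, 9 were called higher in SCPs and 0 in RSCs (median -0.70), led by Ppid (-1.83) and Stip1 (-1.35). Stip1, which joins HSP70 to HSP90, was at 179 to 193 FPKM in SCPs and 69.4 to 76.2 FPKM in RSCs. Under median-of-ratios scaling TRiC kept 7 calls for SCPs (median -0.83), and the co-chaperones had 6 for SCPs and 1 for RSCs (median -0.48). With that scaling 16.9% of all genes were called higher in SCPs and 21.2% in RSCs.

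The HSP90 genes did not follow the inducible HSP70s. Hsp90aa1, the inducible cytosolic form, was at 180, 166 and 153 FPKM in SCPs and at 149, 153 and 165 FPKM in RSCs, and the groups overlapped (log2 difference -0.09, SE 0.09, limma adjusted p = 0.42). Hsp90ab1, the constitutive form, was at 1213, 961 and 823 FPKM in SCPs and at 757, 602 and 423 FPKM in RSCs. Its log2 difference of -0.77 was not called (limma unadjusted p = 0.021, adjusted p = 0.045). Hsp90b1 of the ER was not called (-0.21), and Trap1 of mitochondria was higher in SCPs (-1.18). Prefoldin, which hands unfolded actin and tubulin to TRiC, had 2 of 6 subunits called higher in SCPs, where 22.4% of all genes were.

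Among 9 nucleotide exchange factors, 3 were called in each direction (all genes 18.1% for RSCs and 22.4% for SCPs). Bag3, which couples HSP70 to small HSPs and is a target of heat shock factor 1, was at 4.47, 8.38 and 10.1 FPKM in SCPs and at 80.3, 98.2 and 107 FPKM in RSCs. Its log2 difference was 3.53 (SE 0.29, adjusted p = 2.8e-04). Sil1 (1.52) and Bag5 (0.75) were also higher in RSCs, and Bag2 (-1.34), Grpel1 (-0.54) and Hyou1 (-0.43) higher in SCPs. Under median-of-ratios scaling 4 were called for RSCs (all genes 21.2%) and 0 for SCPs (all genes 16.9%). Hsf1, the heat shock factor itself, was at 23.6, 24.2 and 18.5 FPKM in SCPs and at 5.58, 12.5 and 15.0 FPKM in RSCs. It was not called (-1.03, limma unadjusted p = 0.027, adjusted p = 0.055), and Hsf2 was higher in SCPs (-1.52).

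**Figure D4:**
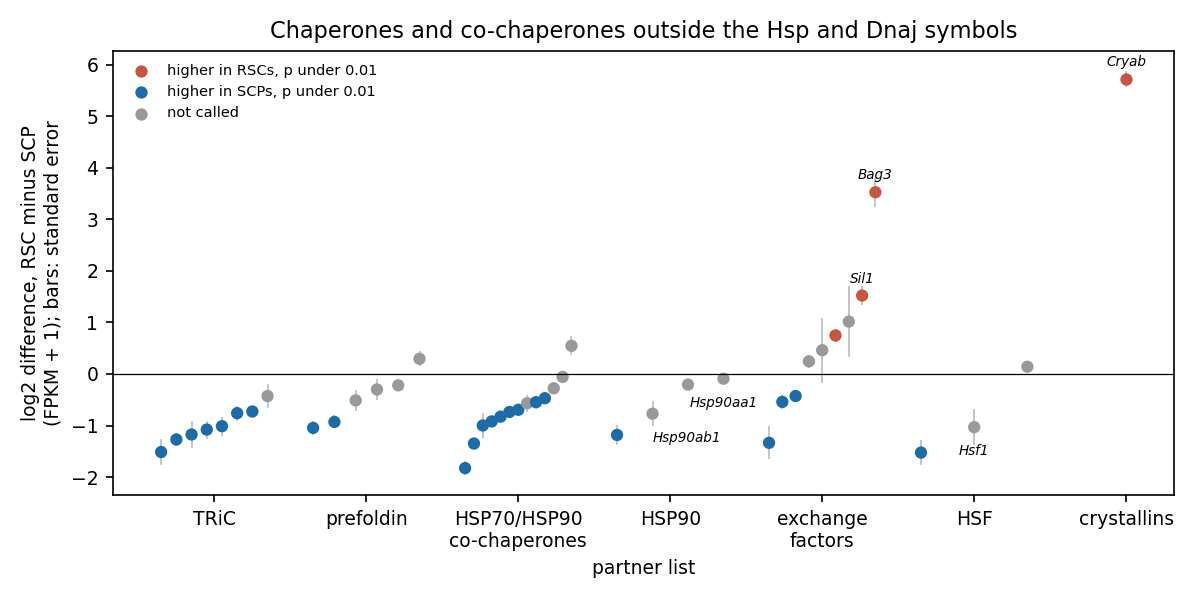
Log2 difference of FPKM + 1 (y axis, RSC minus SCP) of tested partner genes by list (x axis; sideways position only separates points), with standard errors as bars and colours for calls. Cryab (5.72) and Bag3 (3.53) lie high, whereas TRiC subunits lie between -1.51 and -0.43.

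Unnamed transcripts, which Cufflinks assembled in each sample without a gene name, changed the picture for the weaker members. They held 26.1% to 31.9% of FPKM in SCPs and 18.6% to 23.4% in RSCs. When they were added to the gene of the same locus, 23 of 63 tested members were called higher in RSCs (36.5%, all genes 23.2%) and 16 higher in SCPs (25.4%, all genes 34.2%). Of the 14 members called higher in RSCs by named transcripts 13 kept the call, and Dnajb14 lost it. Of the 13 called higher in SCPs 12 kept the call, and Dnajc8 lost it (-0.37). Gained for RSCs were 10 members, among them Hsph1, the heat-responsive Dnajb4 (19.3 to 33.2 FPKM in SCPs, 55.3 to 68.4 FPKM in RSCs), Dnaja4 (8.36 to 13.1 and 26.1 to 49.3 FPKM) and Hspa4l (0.919 to 1.55 and 3.19 to 4.07 FPKM). All 5 heat-inducible and 4 of the 5 heat-responsive members were then called higher in RSCs. The remaining heat-responsive member, Dnaja1, was called higher in SCPs (-0.40). Gained for SCPs were Dnaja2, Dnajc11, Dnajc21 and Hspa14. Only 3 members moved by over 1 on the log2 scale, Hspb6, Dnajb12 and Dnajb14, and 2 of these had a sample listed at 0.

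**Figure D5:**
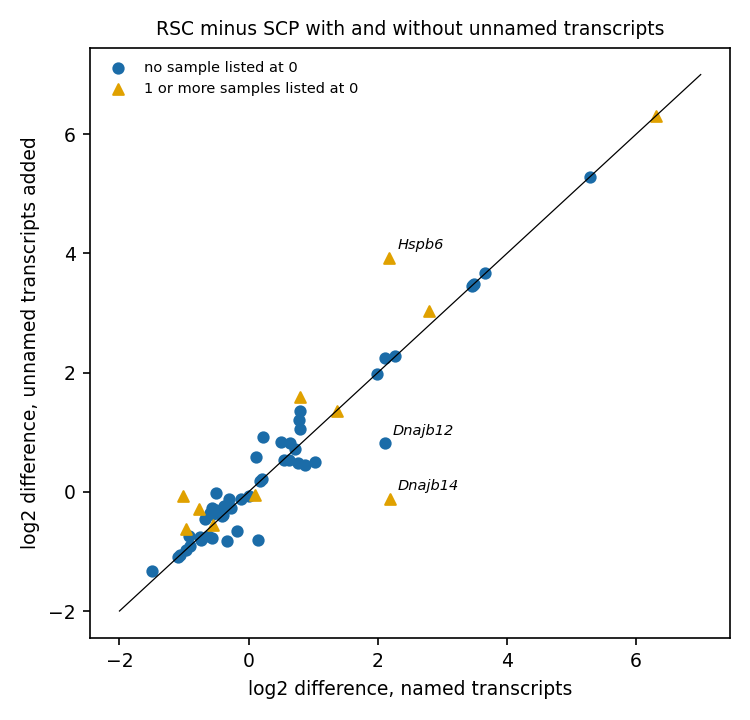
Log2 difference (RSC minus SCP) of 62 tested members from named transcripts (x axis) and with unnamed transcripts of the locus added (y axis). The line marks equality, triangles mark members with a sample listed at 0, and Hspb6, Dnajb12 and Dnajb14 lie more than 1 from it.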

How the data were processed

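The authors made stranded mRNA libraries of 3 SCP and 3 RSC samples and read them as pairs of 100 bp. The submitters' processing notes name FastQC 0.11.2, TopHat2 2.1.0, Cufflinks 2.2.1 and rn6. The deposited tables give each transcript's FPKM and its coverage, a signal per base. The absolute depth is unknown. The relative depth, as coverage per FPKM, was 0.88 to 1.00 of the deepest sample in SCPs and 0.79 to 0.84 in RSCs, and the 3 samples per group set the precision. Whether strand was used in counting is not given in the sources used here. In every sample, 77 transcripts whose names had become dates were left out.

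FPKM were summed by symbol and tested as log2(FPKM + 1) with limma 3.58.1 in R 4.3.3, with a variance trend and without a replicate block, for 13003 symbols averaging 1 FPKM or more, so that fold changes of low genes are understated. Calls used the study's p under 0.01 and, for 4-fold, a log2 difference over 2. On simulated data with 200 genes changed by a log2 fold change of 3 among 13003, 92.5% of these and 1.16% of the unchanged genes were called. The simulated noise was independent between genes, and far fewer genes were changed than were called here. These rates therefore do not describe the smaller differences of most members. Positions in members are from the rn6 tables, counted from 1. Promoters are RefSeq's on GRCr8.

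The members and lists were chosen with earlier results of these data known. The lists of classes, partners and markers were written by hand, and some lineage markers are not reported here. Described in full were the tested heat-inducible members, those over 4-fold, the 8 highest and the 8 lowest log2 differences at p under 0.01, and Hspa8, Hspa5, Hspa9, Hspd1 and Hspe1. Partner lists show up to 3 genes in each direction, with Hsp90aa1, Hsp90ab1, Hsp90b1, Hsf1, Bag3 and Cryab. Alternatives changed the pseudocount (0.1), the filter (none, or a mean of 5 FPKM), the scaling, the variance trend, the block, the p adjustment, the transcripts used, values of 0 and the samples. Tables were handled with pandas 2.3.3 and drawn with matplotlib 3.10.9.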

Additional observations from a re-analysis of the deposited data

How the results depend on the processing

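Of 388 values of the 23 named members under the alternatives, 363 kept direction and side of the threshold, 15 lost the call, 8 gained it and 2 turned, and 17 members held throughout. Dnajc5 turned to 0.95 with the highest transcript per gene, and Dnajb14 to -0.11 with unnamed transcripts added. Median-of-ratios scaling left 8 members higher in SCPs. The constitutive cytosolic median was then -0.29, against -0.72 with the highest transcript and -0.23 over all members outside both heat lists. Unnamed transcripts raised the members higher in RSCs to 23 and all genes called to 8041. The heat-inducible median was 1.39 with the heat-responsive members added and 2.73 with Hspa1a, Hspa1b and Hspa1l counted as 1 gene, an alternative chosen after seeing the data. The causes of the moves were not tested, other than where a list itself was changed.

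Leaving out 1 sample at a time gave 12 to 14 members higher in RSCs, 9 to 13 higher in SCPs and 9 to 11 over 4-fold higher in RSCs, with medians of 3.33 to 3.55 (heat-inducible) and -0.50 to -0.45 (constitutive). With all samples the members numbered 14, 13 and 10 (all genes 18.1%, 22.4% and 7.81%). The shares of all genes without each sample are not given here, so that these counts do not separate members from all genes. Dnajb14 lost its call without any 1 of 5 samples, and Dnajc2 without any 1 of 4. Deviations of same-numbered samples correlated near 0 (0.0435, -0.0049 and 0.0259). SCP 1 and SCP 3 correlated best with their own number, and SCP 2 with another. With 3 samples per group these values cannot decide whether same-numbered samples were paired. A replicate block gave 14 members higher in RSCs, 9 in SCPs and 4275 genes in all, against 5268 genes without it. All genes are not split by direction here. With it Hsph1 gained a call and Dnajb9 lost one for RSCs, and Dnaja1, Dnajc24, Dnajc7 and Hspbp1 lost theirs for SCPs. Depth is unknown, so that no limit can be set for values of 0.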
